A study of Mus musculus with 6 samples.

Results

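Phospholipids are given new fatty acyl chains throughout the life of a cell, and 44 mouse genes of this remodelling, of the 19078 genes measured, are described here in fibroblasts that overexpress *Ms4a15*. The genes were chosen by symbol from their known biochemistry, with earlier results of these data known, and all 44 were found. They encode long-chain acyl-CoA synthetases, lysophospholipid acyltransferases, phospholipases A and D, lysophospholipases, endocannabinoid enzymes, scramblases and enzymes of prostaglandin synthesis.

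In the cycle of acyl chain remodelling, a phospholipase A removes one fatty acid from a phospholipid, a synthetase joins a free fatty acid to coenzyme A, and an acyltransferase attaches it to the remaining lysophospholipid. The choice of enzyme is one influence on how many polyunsaturated chains, such as arachidonic acid, a membrane holds. These chains are the ones that oxidize in ferroptosis, an iron-dependent form of cell death. Arachidonic acid that is released instead can be turned by cyclooxygenases into prostaglandins, for which fibroblasts are a well-known source.

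Poly(A)-selected RNA was sequenced from 3 *Ms4a15* OE libraries and 3 control libraries of pooled immortalized mouse fibroblasts (MF). Both groups derive from conditional *Gpx4*-/- embryonic fibroblasts that express Cre-ERt2 and carry a CRISPR activation system. *Ms4a15* OE cells also received a lentiviral guide that directs this system to *Ms4a15*, control cells received empty lentivirus and are labelled wild type, and the infected pools were selected with G418. No treatment is given for the sequenced cells. Each group is a pool of infected cells, and the labels do not say whether its libraries came from separate cultures, so that the p-values below measure only the spread between these libraries.

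Levels are given as implied group means in normalized counts, that is, counts divided by each library's size factor. They were computed from each gene's mean over all 6 libraries and its fold change, and no single library's values could be shown. The size factors lay between 0.887 and 1.14, and 3 counts in the library with the lowest factor came to 3.38 normalized counts, a floor under which no level is read and which covers counting error only. *Ms4a15* itself, on chromosome 19, was under this floor in control at 0.174 normalized counts and stood at 1275 in *Ms4a15* OE, at least 377-fold higher. A gene is called higher or lower where the Wald test of its log2 fold change, with Benjamini-Hochberg adjustment over all 19078 genes, gave an adjusted p under 0.05.

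The cells were checked for their labelled type. Of 12 fibroblast markers 4 were higher and 5 lower in *Ms4a15* OE, 1 of them (*Lum*) was under the floor in both groups, and their summed level was 296314 normalized counts against 613527 in control. Without *Col1a1* and *Col1a2* the other 10 summed to 248575 against 256995. Most of that sum was *Vim*, at 112480 against 117789, and *Fn1*, at 112230 against 116256, so it says little about the less abundant markers. Among these, *Col3a1* was lower at 933 against 7274 (log2 fold change -2.96) and *Fbn1* at 2400 against 3429 (log2 fold change -0.51). *Dcn* was higher, at 23.6 in *Ms4a15* OE and under the floor in control at 0.624. *Vim* and *Fn1*, both abundant in these cells, did not pass the test, whereas *Col1a1* fell by 4.50 and *Pdgfrb* fell by 3.83 on the log2 scale and *S100a4*, *Thy1* and *Pdgfra* rose by 1.37, 0.69 and 0.60. Markers of other cell types summed to 1719 against 485 for the 6 myeloid genes measured (2 higher, *Lyz2* and *Cd68*), 216 against 34.7 for 5 endothelial genes (2 higher, *Cdh5* and *Pecam1*), 234 against 137 for 7 epithelial genes (2 higher, *Krt8* and *Krt14*) and 27.4 against 14.9 for 5 adipocyte genes (1 higher, *Fabp4*). The endothelial *Cdh5* stood at 187 against 26.0 and *Pecam1* at 25.6 against 6.24, whereas the other 3 genes of that list, *Kdr*, *Tek* and *Tie1*, were under the floor in both groups. Also under it in both were 5 epithelial genes, among them *Epcam* and *Cdh1*, and 3 adipocyte genes, among them *Adipoq*, but no myeloid gene. Of the myeloid genes, *Lyz2* stood at 1026 against 40.7 and *Cd68* at 261 against 67.1. *Ptprc*, which did not pass the test, stood at 7.44 against 14.8, and no marker in these 4 lists was called lower. The part of these markers in the results below was not tested, and in bulk RNA fewer cells of a type and less RNA per cell cannot be told apart.

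Of the 44 genes, 31 passed the test, 20 higher and 11 lower in *Ms4a15* OE. This is 70.5%, where 42.9% of all genes passed, with 21.5% higher and 21.5% lower. The 44 genes are mostly abundant, and at like abundance the shares lay closer together. A mean of 100 normalized counts or more was reached by 40 of them, and of the 10440 genes at this level 65.6% passed, 30.7% higher and 34.9% lower. Of these 40 genes 30 passed (75%), 19 higher (47.5%) and 11 lower (27.5%). The list was made with earlier results of these data known, so these shares describe it and are no independent test. Counts by role and by list below are to be read beside the same shares of all genes.

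Changes of at least 2-fold were found among phospholipases A, acyltransferases, diacylglycerol lipases and cyclooxygenases, and in autotaxin. Of the 40 genes, 10 (25%) passed and differed by at least 2-fold, 8 of them higher and 2 lower, where 7.34% of all genes at this level did so, 4.05% higher and 3.29% lower. The 8 were *Ptgs1*, *Ptgs2*, *Pla2g6*, *Pla2g7*, *Lpcat3*, *Dagla*, *Daglb* and *Enpp2*, and the 2 were *Lpcat2* and *Pla2g16*. *Ptges*, with a mean of 82.3, also rose by more than 2-fold. On the log2 scale the 40 genes had a median fold change of 0.07 and all genes at this level one of -0.02, while the medians of its size without sign were 0.40 and 0.24. At the other end, 17 of the 31 called genes changed by less than 1.5-fold. The standard errors implied a median coefficient of variation between libraries of 4.89%, against 4.49% for all genes at this level. DESeq2 draws such estimates towards those of genes of like abundance, so this likeness is partly built in.

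**Figure D1:**
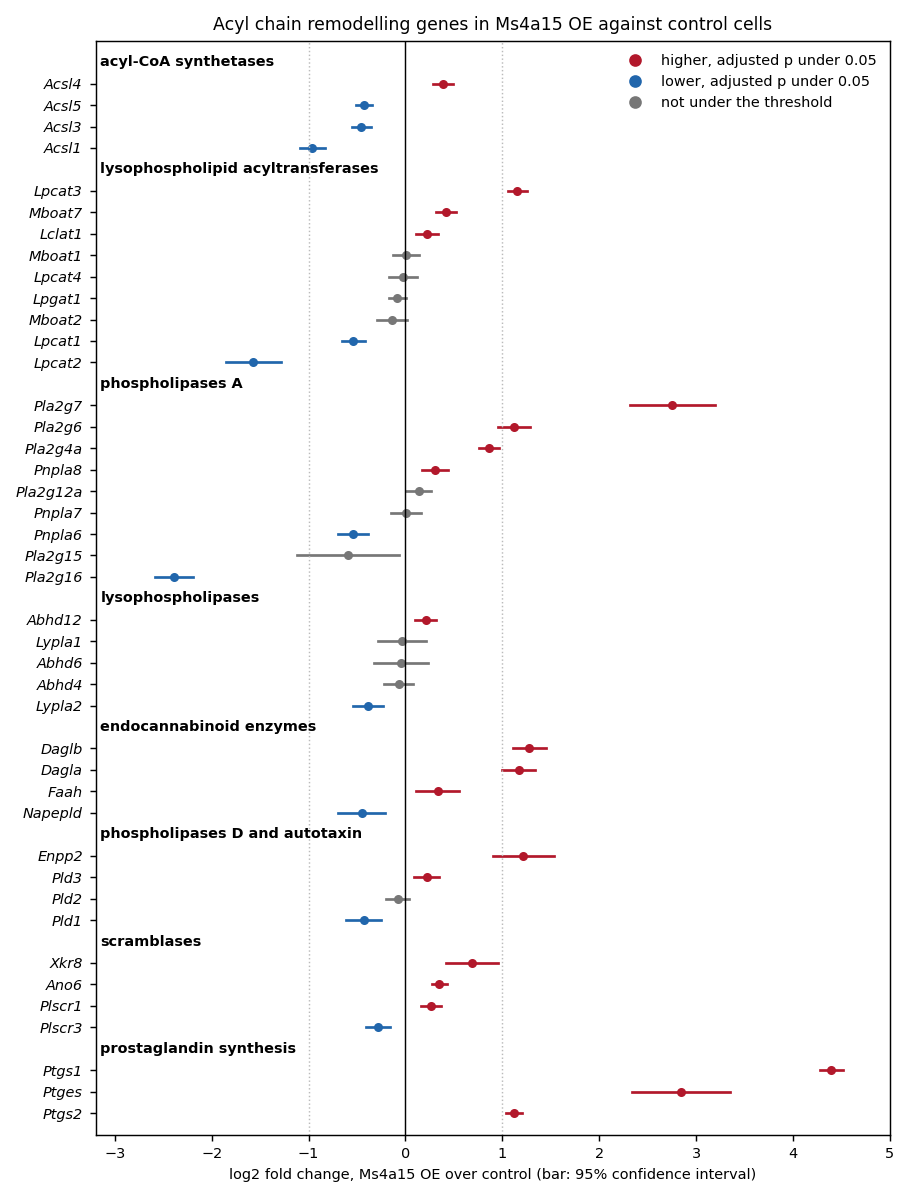
Log2 fold change (*Ms4a15* OE over control, horizontal axis) for the 42 genes above the floor, grouped by role, with 95% confidence intervals as bars. Red genes were higher and blue genes lower at an adjusted p under 0.05, and grey genes did not pass; *Ptgs1* lies farthest to the right at 4.40 and *Pla2g16* farthest to the left at -2.39.

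The enzymes that turn arachidonic acid into prostaglandin E2 all rose. *Ptgs1* encodes cyclooxygenase 1, the isoform that many tissues express at a steady level, and *Ptgs2* encodes cyclooxygenase 2, the isoform induced by inflammatory and growth signals. *Ptges* encodes the microsomal synthase that turns their product, prostaglandin H2, into prostaglandin E2. The 250 bases before the annotated start of each are shown here because *Ptges* acts on the product of both cyclooxygenases and all 3 genes rose. They are read 5′ to 3′ on the gene's strand from RefSeq (GRCm38.p6), with GC boxes (GGGCGG on either strand) in capitals.
Ptgs1, chr2:36230176-36230425, plus strand: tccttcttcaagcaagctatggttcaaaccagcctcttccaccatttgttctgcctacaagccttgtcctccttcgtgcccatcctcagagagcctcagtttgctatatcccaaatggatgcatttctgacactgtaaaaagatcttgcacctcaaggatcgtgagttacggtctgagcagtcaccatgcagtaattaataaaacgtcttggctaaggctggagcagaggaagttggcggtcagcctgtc
Ptgs2, chr1:150099781-150100030, plus strand: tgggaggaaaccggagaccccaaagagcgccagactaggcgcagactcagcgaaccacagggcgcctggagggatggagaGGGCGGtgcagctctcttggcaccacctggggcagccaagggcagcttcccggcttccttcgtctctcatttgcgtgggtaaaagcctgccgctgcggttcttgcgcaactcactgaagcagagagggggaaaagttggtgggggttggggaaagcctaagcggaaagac
Ptges, chr2:30903298-30903547, minus strand: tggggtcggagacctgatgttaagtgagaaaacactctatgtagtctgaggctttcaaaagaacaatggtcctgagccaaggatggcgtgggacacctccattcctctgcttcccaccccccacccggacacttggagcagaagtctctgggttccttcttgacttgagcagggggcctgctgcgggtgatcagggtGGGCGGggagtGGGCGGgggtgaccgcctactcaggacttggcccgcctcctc

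The 3 stretches differed in base composition. G and C made up 48.0% of the one before *Ptgs1*, 61.6% before *Ptgs2* and 59.6% before *Ptges*, where the median over 32851 RefSeq promoters was 52.4%. A search on both strands covered these bases and the 50 after the start, 300 in all, for the TATA box (TATAAA), the CCAAT box (CCAAT), the GC box, the core of the cAMP response element (TGACG), the E-box (CACGTG) and the AP-1 site (TGANTCA). *Ptgs2* held a GC box 170 to 165 bases before the annotated start and an E-box at bases 17 to 22 after it. Overlapping that E-box was the cAMP response element core, at bases 14 to 18 on the reverse strand. All positions count from the RefSeq start, and where transcription starts in these cells was not tested. *Ptges* held GC boxes 53 to 48 and 42 to 37 bases before the start, and these letters were not found in the window of *Ptgs1*. Of all 300-base windows 35.7% held a GC box, 20.8% the cAMP response element core, 7.15% an E-box, 13.6% a TATA box, 37.4% a CCAAT box and 7.81% an AP-1 site.

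*Ptgs1* showed the largest change of the 44 genes. Its level was 316 normalized counts in control and 6654 in *Ms4a15* OE, 21.1-fold higher (95% interval 19.4 to 23.0), with a log2 fold change of 4.40 and a standard error of 0.0628. The change was 70.1 times its standard error, a size at which the p-value is too small to be written as a number above 0. *Ptgs2* went from 5677 to 12331, a log2 fold change of 1.12 (SE 0.0427, adjusted p = 4.40e-149). *Ptges* went from 20.2 to 144, a log2 fold change of 2.84 (SE 0.257, adjusted p = 2.84e-27). Levels per kilobase of exon allow a rough comparison between genes. The lengths were unions of exons over annotated transcripts, expressed or not, and came from another annotation than the one named for counting. On this scale *Ptgs1* made up 7.95% of the summed level of both cyclooxygenase genes in control cells and 45.6% in *Ms4a15* OE cells. *Ptgs1* was thus the minor isoform in control, at 110 normalized counts per kilobase against 1275 for *Ptgs2*, and came close to it in *Ms4a15* OE, at 2321 against 2769. *Ptges* stood at 5.53 and 39.6 normalized counts per kilobase, below both in either group. Its exon length of 3647 bases belongs to an annotated gene that reaches base 30929863, upstream of the start shown above. If the transcripts expressed are shorter, these levels of *Ptges* per kilobase are understated.

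Release of arachidonic acid precedes these steps. *Pla2g4a*, which encodes the calcium-dependent cytosolic phospholipase A2 with a preference for arachidonic acid, rose from 3330 to 6058 normalized counts, 1.82-fold (log2 fold change 0.86, SE 0.0508, adjusted p = 2.62e-63). The gene lies near *Ptgs2* on chromosome 1, with 138740 bases and 4 annotated genes between them, of which 1, the long noncoding RNA gene *7530420F21Rik*, was measured. *Pla2g4a* is on the minus and *Ptgs2* on the plus strand. The expressed genes around them did not rise as a group, which leaves single neighbours undescribed. Over the 20 genes on each side with a mean of 100 or more, the median log2 fold change was -0.18 around *Pla2g4a* and -0.15 around *Ptgs2*. Both medians rest largely on the same genes.

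Of the genes of the wider eicosanoid pathway, 22 further enzymes and transporters were listed and 19 measured, of which 9 were higher and 4 lower. Among all genes 21.5% were higher and 21.5% lower. In both groups 5 were under the floor, among them *Alox15*, which is also counted as higher but whose level is not read. The largest change was in *Slco2a1*, the prostaglandin transporter that takes prostaglandins up, at 84.3 normalized counts in control and 2137 in *Ms4a15* OE, 25.3-fold higher (95% interval 21.9 to 29.3). *Abcc4*, a pump that can export prostaglandins, rose from 2909 to 6928, with a log2 fold change of 1.25 (SE 0.0402). *Ptger4*, a receptor for prostaglandin E2, rose from 43.4 to 135, with a log2 fold change of 1.63 (SE 0.215, adjusted p = 2.31e-13). It was among 20 receptors for eicosanoids, lysophospholipids and endocannabinoids, of which 13 were measured. Of these 13, 5 were higher, none was lower and 6 were under the floor in both groups, beside the same shares of all genes. Other genes of prostaglandin handling were singled out after their values were seen. *Ptges2* and *Ptges3*, the other synthases of prostaglandin E2, were higher by 0.43 and 0.11 on the log2 scale, and *Cbr1* and *Ptgr1*, reductases of prostaglandins, by 0.43 and 0.21. *Ptgis*, the prostacyclin synthase, fell by 0.52, and *Ptgir*, the prostacyclin receptor, was under the floor in control at 0.930 and stood at 21.7 normalized counts in *Ms4a15* OE.

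**Figure D2:**
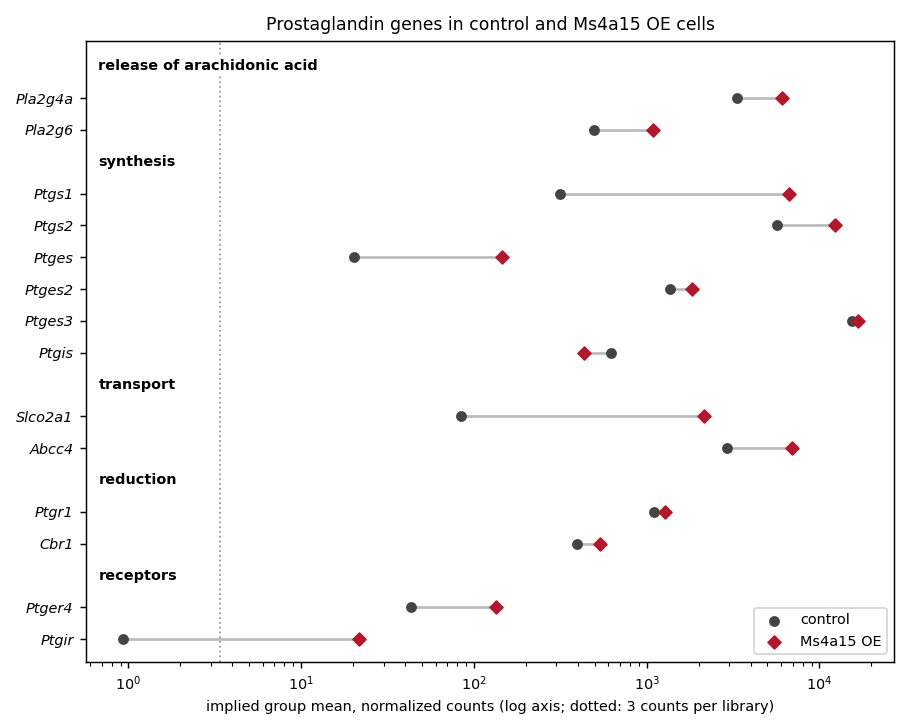
Implied group means in normalized counts (horizontal log axis) of 14 genes of prostaglandin release, synthesis, transport, reduction and reception in control (circles) and *Ms4a15* OE (diamonds), with a dotted line at the floor of 3.38. *Ptgs1* and *Slco2a1* show the widest gaps among genes above the floor in both groups, from 316 to 6654 and from 84.3 to 2137. Of the 14 shown, *Ptgis* alone was lower in *Ms4a15* OE. Some of the 14 were picked after their values were seen, and of the 19 further eicosanoid enzymes and transporters measured 4 were lower.

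The other phospholipases A moved in both directions, and of all 9 genes 4 were higher, 2 lower and 3 did not pass. For comparison, 42.9% of all genes and 65.6% of those with a mean of 100 or more passed. *Pla2g6*, which encodes a calcium-independent phospholipase A2, rose from 496 to 1081 normalized counts, with a log2 fold change of 1.12 (SE 0.0848, adjusted p = 1.05e-38). *Pla2g7*, whose secreted product hydrolyses platelet-activating factor and oxidized phospholipids, rose 6.76-fold (95% interval 4.99 to 9.15) from a low level of 28.0 to 189. *Pnpla8*, a phospholipase A of mitochondria and peroxisomes, rose by 0.31 on the log2 scale. *Pla2g16*, which encodes an enzyme with both phospholipase A and acyltransferase activity that is abundant in fat cells, showed the largest fall of the 44 genes, from 1044 to 199, 5.24-fold lower (95% interval 4.58 to 5.99). *Pnpla6*, the neuropathy target esterase, which deacylates phosphatidylcholine and its lyso form, fell by 0.54 (SE 0.0793). *Pla2g12a*, *Pla2g15* and *Pnpla7* had log2 fold changes of 0.14, -0.60 and 0.00, and the wide 95% interval of *Pla2g15*, the lysosomal phospholipase A2, ran from -1.12 to -0.07 at 61.7 normalized counts in control and 40.8 in *Ms4a15* OE. Against the median of their neighbours, *Pnpla6* did not pass and *Pla2g12a* did.

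The list of 40 other phospholipases and lysophospholipases, 31 of them measured, held 6 genes that were higher and 6 that were lower, with 7 under the floor in both groups. *Pla2g2e* and *Pla2g5*, genes of secreted phospholipases A2 that lie 14459 bases apart on chromosome 4, moved in opposite directions. *Pla2g2e* rose from 7.27 to 108 normalized counts, a log2 fold change of 3.89 (SE 0.378), whereas *Pla2g5* fell from 369 to 50.7, a log2 fold change of -2.87 (SE 0.173). *Pla1a*, whose product removes the first acyl chain of phosphatidylserine, rose by 1.09 (SE 0.0633), and *Lyplal1*, a relative of the lysophospholipases, fell by 1.66 (SE 0.135).

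Long-chain acyl-CoA synthetases activate fatty acids before they are used, and here *Acsl4* moved against its relatives. *Acsl4*, whose product prefers arachidonic and adrenic acid and whose loss makes cells resist ferroptosis, rose from 1994 to 2603 normalized counts, 1.31-fold (log2 fold change 0.38, SE 0.0528, adjusted p = 2.47e-12). *Acsl1*, a synthetase of liver, fat and muscle, fell from 1482 to 761 (log2 fold change -0.96, SE 0.0668). *Acsl3*, which supplies acyl-CoA for lipid droplets, fell from 3407 to 2480 (log2 fold change -0.46, SE 0.0497). *Acsl5*, a synthetase of mitochondria and the endoplasmic reticulum, fell from 11763 to 8749 (log2 fold change -0.43, SE 0.0407). *Acsl6* was under the floor in both groups, at 0.320 and 0.358.

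In level per kilobase of exon, *Acsl5* was the leading synthetase in both groups, with 63.5% of the family's sum in control and 61.4% in *Ms4a15* OE. *Acsl4* went from 8.58% to 14.5% of that sum and *Acsl1* from 8.14% to 5.43%, so that a nearly equal pair in control, at 374 and 355 normalized counts per kilobase, stood at 488 and 182 in *Ms4a15* OE. The rise of *Acsl4* is under 1.5-fold and did not pass a test against a 1.2-fold change. Among 12 measured genes of other acyl-CoA enzymes 6 were higher and 3 lower, and *Acot2*, a mitochondrial acyl-CoA thioesterase, rose by 1.19 (SE 0.109). *Acot2* has a near-identical neighbour, *Acot1*, for which no value was found here, so reads of the pair may be mixed.

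The lysophospholipid acyltransferases, which put a new chain on a lysophospholipid, included 3 genes that were higher, 2 that were lower and 4 that did not pass. At a mean of 100 or more, 65.6% of all genes passed. *Lpcat3*, whose product favours polyunsaturated acyl-CoA and places arachidonic and linoleic acid in phosphatidylcholine and phosphatidylethanolamine, rose from 1672 to 3720 normalized counts, 2.22-fold (log2 fold change 1.15, SE 0.0496, adjusted p = 1.57e-117). *Mboat7*, which places arachidonic acid in phosphatidylinositol, rose from 1653 to 2210 (log2 fold change 0.42, SE 0.0524). *Lclat1*, an acyltransferase of cardiolipin and phosphatidylinositol, rose by 0.22 (SE 0.0576, adjusted p = 0.000470), a change that did not pass the test against a 1.2-fold change or against the median of its neighbours, 0.11. *Lpcat1*, which places saturated chains and is known from lung surfactant, fell from 1585 to 1090 (log2 fold change -0.54, SE 0.0605). *Lpcat2*, which takes part in the synthesis of platelet-activating factor in inflammatory cells, fell 2.97-fold from 356 to 120 (log2 fold change -1.57, SE 0.147).

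The genes for *Lpcat4* and for *Mboat1*, *Mboat2* and *Lpgat1*, which handle mostly monounsaturated or saturated chains, had log2 fold changes of -0.03, 0.01, -0.14 and -0.08. Their 95% intervals were -0.17 to 0.12, -0.13 to 0.14, -0.30 to 0.01 and -0.17 to 0.00, so a change by 1.5-fold lies outside each of them. Per kilobase of exon, *Lpcat4* led the LPCAT genes in control with 42.0% of their sum, followed by *Lpcat3* with 33.2%, *Lpcat1* with 19.1% and *Lpcat2* with 5.73%. In *Ms4a15* OE the order of the first pair was exchanged, with 56.7% for *Lpcat3*, 31.7% for *Lpcat4*, 10.1% for *Lpcat1* and 1.48% for *Lpcat2*. Of 10 other acyltransferase genes, all measured, 2 were higher and 3 lower, and none of these changed by as much as 2-fold.

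**Figure D3:**
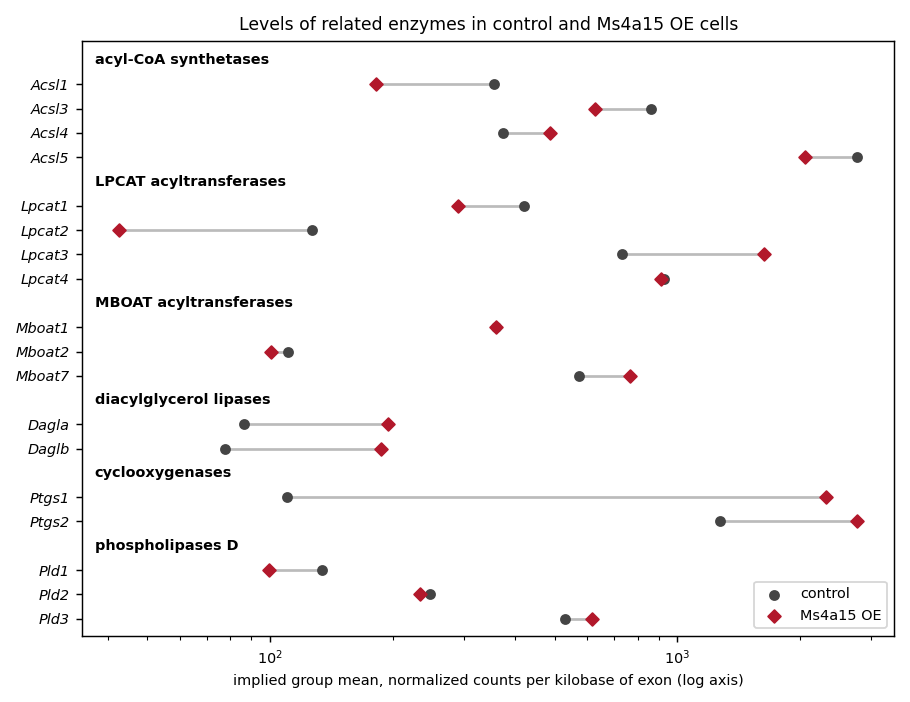
Implied group means in normalized counts per kilobase of exon (horizontal log axis) for related enzymes in control (circles) and *Ms4a15* OE (diamonds). *Ptgs1* and *Lpcat3* move to the right from 110 to 2321 and from 733 to 1631, *Lpcat2* moves to the left from 127 to 42.7, and *Mboat1*, at 358 and 360, shows overlapping symbols.

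Of the 5 lysophospholipases, which remove the last chain of a lysophospholipid, 1 was higher, 1 lower and 3 did not pass. Among all genes with a mean of 100 or more, 65.6% passed. *Abhd12*, a hydrolase of lysophosphatidylserine, rose by 0.21 (SE 0.0547), and *Lypla2*, an acyl-protein thioesterase and lysophospholipase, fell by 0.39 (SE 0.0804). Neither change passed the test against a 1.2-fold change. *Abhd4*, a lysophospholipase for N-acyl phospholipids, and *Abhd6*, a monoacylglycerol hydrolase, had log2 fold changes of -0.07 and -0.04. *Lypla1*, at 2770 and 2704 normalized counts, had one of -0.03 with a standard error of 0.124, which was 2.42 times the median for genes of like abundance. The gene shares 23.6% of its exon bases with *Gm37988* on the same strand, and reads there cannot be told apart.

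Both diacylglycerol lipases rose. *Dagla* and *Daglb* encode the enzymes that make the endocannabinoid 2-arachidonoylglycerol, which in some tissues also supplies arachidonic acid for prostaglandins. *Dagla* rose from 488 to 1096 normalized counts (log2 fold change 1.17, SE 0.0863, adjusted p = 2.46e-40) and *Daglb* from 360 to 873 (log2 fold change 1.28, SE 0.0870, adjusted p = 2.51e-47). Per kilobase of exon the pair stood at 86.6 and 77.5 in control and at 195 and 188 in *Ms4a15* OE. *Dagla* lies on chromosome 19, with 673429 bases between it and *Ms4a15*, and the median of its neighbours was -0.22. *Daglb* shares 49.7% of its exon bases with *Rac1* on the opposite strand. *Rac1*, at 5276 normalized counts per kilobase in control and 4595 in *Ms4a15* OE, was lower (log2 fold change -0.20), and whether reads were counted by strand is not given in the sources used here.

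Of the other endocannabinoid enzymes 1 rose and 1 fell. *Mgll*, the main hydrolase of 2-arachidonoylglycerol, was under the floor in both groups, at 2.50 and 0.716 normalized counts. *Faah*, which hydrolyses anandamide, rose by 0.33 (SE 0.113, adjusted p = 0.00884), and *Napepld*, which releases N-acylethanolamines such as anandamide, fell by 0.45 (SE 0.123, adjusted p = 0.000785). Neither passed the test against a 1.2-fold change. *Enpp2* encodes autotaxin, the secreted enzyme that makes lysophosphatidic acid, and rose from 101 to 235 (log2 fold change 1.21, SE 0.160, adjusted p = 2.77e-13). Of the phospholipase D genes, *Pld1* fell by 0.43 (SE 0.0915), *Pld3*, whose product acts as a lysosomal nuclease, rose by 0.22 (SE 0.0655), and *Pld2* had a log2 fold change of -0.08 with a 95% interval of -0.20 to 0.04. *Pld1* stood among genes with a median of -0.37 and did not pass against it.

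All 4 genes listed here as scramblases, a name for proteins that move phospholipids between the leaflets of a membrane, passed the test. So did 65.6% of all genes with a mean of 100 or more, a level that these 4 reached. *Ano6*, a calcium-activated scramblase, rose from 5562 to 7091 normalized counts (log2 fold change 0.35, SE 0.0376), and *Xkr8*, a scramblase switched on by caspases, rose from 165 to 266 (log2 fold change 0.69, SE 0.136). *Plscr1* rose by 0.27 and *Plscr3* fell by 0.28, and of the 4 genes *Xkr8* alone passed the test against a 1.2-fold change. *Plscr3* shares 28.3% of its exon bases with *Tnk1* on the opposite strand. Of 23 other scramblase and flippase genes measured, 4 were higher, 8 lower and 6 under the floor in both groups. Among these *Atp8b4*, of the flippases that return phospholipids to the inner leaflet, rose 15.5-fold from 35.8 to 555 (log2 fold change 3.96, SE 0.171). Over all lists, 108 of 135 other genes of the pathway were measured, 32 were higher and 24 lower. Of all genes in the data, 21.5% were higher and 21.5% lower.

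The 44 genes lie on 17 chromosomes, and the genes around them differed between stretches of chromosome. On chromosome 19, which carries *Ms4a15*, *Acsl5*, *Pla2g16* and *Dagla*, 358 genes with a mean of 100 or more had a median log2 fold change of -0.26, and 77.1% were below 0. Medians over the 20 expressed genes on each side of a gene lay between -0.52 for *Pla2g15* and 0.20 for *Lpcat3*. After subtraction of this median, the log2 fold change was 4.26 for *Ptgs1*, 1.27 for *Ptgs2*, 2.80 for *Ptges*, 1.04 for *Pla2g4a*, 0.95 for *Lpcat3*, 1.38 for *Dagla* and -2.14 for *Pla2g16*. For *Acsl5* it was -0.22 in place of -0.43, with a neighbour median of -0.20. For *Acsl1* and *Lpcat2*, both on chromosome 8, it was -0.64 and -1.19, with neighbour medians of -0.32 and -0.38. *Pnpla6* and *Pla2g15*, on the same chromosome, stood at -0.14 and -0.07.

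**Figure D4:**
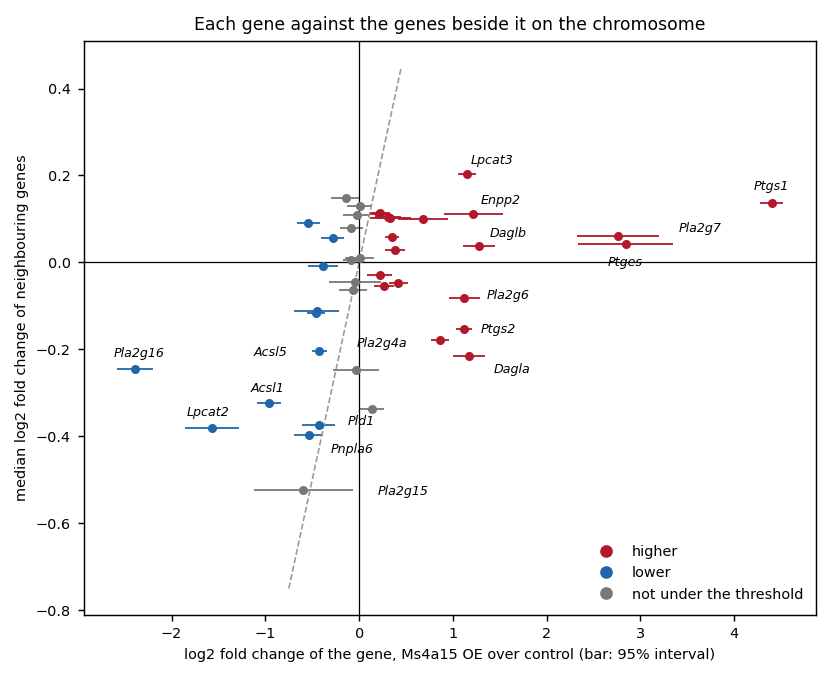
Log2 fold change of each of the 42 genes above the floor (horizontal axis, bars are 95% confidence intervals) against the median log2 fold change of the 20 expressed genes on each side of it (vertical axis); on the dashed line both are equal. Neighbour medians stay between -0.52 and 0.20, *Ptgs1*, *Ptges*, *Pla2g7* and *Pla2g16* lie far from the line, and *Pla2g15*, *Pnpla6* and *Pld1* lie close to it.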

How the data were processed

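RNA of 6 libraries in 2 groups was sequenced on an Illumina HiSeq4000. According to the study's methods, STAR was the aligner, with mm10 and UCSC knownGene, HTSeq-count gave reads per gene and DESeq2 the comparison, whereas the submitters' processing notes name TopHat, Cufflinks, Cuffdiff, HTSeq and DESeq2 with mm10. The labels give a stranded library kit and the methods another kit and read length.

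One table of the comparison was used. Its signal, as deposited by the authors, is a gene's mean count after division by size factors. Its log2 fold changes and their standard errors are the authors' deposited estimates from DESeq2, since no values of single libraries could be used. The deposited table also holds the authors' p-value and adjusted p-value, and a column for the direction. These were not used as results. Wald p-values (2-sided, normal) and their Benjamini-Hochberg adjustment over 19078 genes were recomputed, and all 19078 genes fell on the same side of 0.05 as in the table. No column of per-sample values was left without a sample (0 columns). Intervals are the estimate plus or minus 1.96 standard errors. Depth is known only through size factors recovered from 1267 genes listed with the mean that 1 read in 1 library gives.

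The planned count test could not be run for lack of counts. Positions and exon lengths (union of exons) came from GENCODE M21 on GRCm38, with RefSeq symbols and synonyms for 1990 genes, which located 16641 genes of the table and all 44 members. Neighbour medians were subtracted without an error of their own. Promoters came from RefSeq. The members, the pathway lists and the marker lists were chosen with earlier results of these data known. Every member could be named. Of the other pathway genes, those named passed the test with an absolute log2 fold change of at least 1 and an implied mean of at least 50 in one group, at most 4 per list. *Ptges2*, *Ptges3*, *Cbr1*, *Ptgr1*, *Ptgis*, *Ptgir*, *Alox15* and genes that overlap or lie between members fall outside this rule and were named after their values were seen. The procedure was tested on simulated data. Python 3.11.15 with numpy 2.4.6, pandas 2.3.3, scipy 1.17.1 and matplotlib 3.10.9 was used.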

Additional observations from a re-analysis of the deposited data

How the results depend on the processing

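5 alternatives were computed for every count. For single genes 4 were, since a required fold leaves a gene's value as it is, and 3 for *Acsl6* and *Mgll*, whose means are below 10. Where a log2 fold change of 1 or more was required, 11 of the 44 genes were called (9 higher, 2 lower) against 10.2% of all genes, with 0 of the acyl-CoA synthetases, 2 acyltransferases, 3 phospholipases A, 0 lysophospholipases, 2 endocannabinoid enzymes, 1 of the phospholipase D and autotaxin genes and 0 scramblases, and 19 of the other pathway genes. In a test against a 1.2-fold change 19 were called (12 higher, 7 lower) against 18.8% of all genes, with 0 lysophospholipases, 2 endocannabinoid enzymes, 1 of the phospholipase D and autotaxin genes and 1 scramblase, and 28 other pathway genes. Both are stricter by construction, and the 3 genes of prostaglandin synthesis were called under each of the 5. Adjustment over genes whose mean reached 10 called 32 genes, adding *Pla2g15*, against 62.1% of all genes so adjusted, and centring on the median called 32, adding *Pla2g12a*, against 42.8%. With neighbouring genes subtracted 29 were called against 44.0% of all genes with a position, 1 of them a lysophospholipase. *Lclat1*, *Pnpla6*, *Abhd12*, *Faah* and *Pld1* lost their call and *Mboat2*, *Pla2g12a* and *Pld2* gained one. There the sign turned for *Mboat1* (-0.12), *Pnpla7* (-0.0053), *Lypla1* (0.21) and *Abhd6* (0.0033), none of which was called, and the cause was not tested. No paired analysis was possible because the table used holds no single library's values. For the same reason leaving out each replicate, edgeR's test with TMM scaling and the replicate block were not run. For genes under 3.38 normalized counts in both groups, *Acsl6* and *Mgll*, low expression and limited depth cannot be told apart.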
